A study of Homo sapiens with 54 samples.

Results

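AOC1, the gene of a diamine oxidase that breaks down putrescine and histamine, was followed together with 9 genes of polyamine metabolism in tumours grown from LNCaP cells. The members were chosen from the 60642 symbols of the expression table, with earlier results of these data known. AOC1 was selected on its measured rise under enzalutamide, and ODC1, AMD1, SRM, SMS, SAT1, PAOX, SMOX, AZIN1 and OAZ1 were chosen by their place in the pathway, which makes 10 genes in all. The level of AOC1 in the groups is therefore given as a description with no test, except between castration-resistant and castration-responding tumours, a contrast that played no part in its choice. All 10 genes passed the filter of 1 human TPM in at least 8 tumours, and AOC1 passed it through the castrated groups alone, since 1 PRE-CX tumour of 9 reached that level.

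Polyamines (putrescine, spermidine and spermine) are small positively charged molecules that bind nucleic acids and are needed for growth, and the prostate makes and secretes them in unusually large amounts under androgens. Ornithine decarboxylase turns ornithine into putrescine, and spermidine synthase and spermine synthase add aminopropyl groups that come from decarboxylated S-adenosylmethionine. Breakdown runs through acetylation and oxidation, or through direct oxidation of spermine or putrescine. Antizyme binds ornithine decarboxylase and sends it to the proteasome, and antizyme inhibitor takes antizyme away from it. Several of these proteins are controlled mainly through translation and turnover, so the transcript levels given here do not measure enzyme activity.

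The data were RNA-seq of 54 xenografts of LNCaP clone FGC, a human prostate cancer line whose growth responds to androgens, 1 tumour from each mouse. The hosts were male NOD-SCID mice, 5 to 6 weeks old on arrival, which lack T and B cells and keep other immune cells, vessels and stroma of their own. PRE-CX tumours (n = 9) grew in mice with mock surgery and androgens present, and were taken at 1000 mm3. All other groups shared castration when the tumour was about 200 mm3 in size. POST-CX tumours (n = 8) were taken 1 week later at the lowest serum prostate-specific antigen (PSA), and CRPC tumours (n = 10) at PSA recurrence or at 1000 mm3. In the remaining groups, castrated mice were given enzalutamide, an inhibitor of the androgen receptor, by mouth at 10 mg/kg on 5 days a week once PSA rose again. ENZS tumours (n = 12) were collected at the PSA nadir on the drug, and ENZR tumours (n = 15) at PSA recurrence or at 1000 mm3 on the drug. As a model, the groups are limited to 1 cell line clone, and the drug groups differ from PRE-CX by both castration and enzalutamide. The groups also differ in the rule for collection, and so in tumour size or time of growth, whose part in the results was not tested.

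Values are TPM, the share of transcripts scaled to a fixed total. The deposited TPM had been estimated over human and mouse transcripts together, and the human symbols held between 12.1% and 97.5% of each tumour's total, with a median of 89.9%. POST-CX mouse 91 (27.9%) and ENZR mouse 87 (12.1%) stood apart, and the other 52 tumours held at least 59.7%. Each tumour was therefore rescaled to 1000000 TPM over human genes, called human TPM below. The 8 genes that mark prostate epithelium summed to 2816 to 10130 human TPM in every tumour, so the labelled cell type was present. The 16 stroma and blood genes summed to 19.4 to 32.9 human TPM in PRE-CX, 18.9 to 49.1 in POST-CX, 25.7 to 111 in CRPC, 42.5 to 323 in ENZS and 19.5 to 109 in ENZR, with PECAM1, CDH5, PTPRC, HBA1 and HBB under 0.5 human TPM in each tumour. That sum was higher in most enzalutamide tumours than in PRE-CX, and its part in the results below was not tested. Its genes differed in course. In PRE-CX, ENZS and ENZR, the mean of COL3A1 was 0.924, 20.8 and 28.1 human TPM. For LUM it was 0.374, 21.7 and 9.31, for DCN 0.148, 9.84 and 3.77, and for CD68 0.837, 4.25 and 5.83. VWF (4.85, 2.13 and 1.21) and LYZ (0.629, 0.344 and 0.330) went the other way. TPM keep no read depth for a single tumour (about 40 M read pairs were planned for each), so precision rests on the spread between tumours. In bulk tumours, fewer cells that express a gene and less RNA per cell cannot be told apart.

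Upstream sequences are shown for AOC1, the gene with the widest range between groups, and for ODC1, AMD1 and SRM. These 3 are synthesis genes that were lower after castration or under enzalutamide and that held a motif marked below. SMS, also lower, had a window with neither motif and is not printed. They are RefSeq sequences on GRCh38.p14, printed 5′ to 3′ on the strand of the gene, with CACGTG (the E-box bound by MYC and related factors, a palindrome) or TATAA (the TATA motif) in capitals.
AOC1, 250 bases before its listed start site, chr7:150852267-150852516, plus strand: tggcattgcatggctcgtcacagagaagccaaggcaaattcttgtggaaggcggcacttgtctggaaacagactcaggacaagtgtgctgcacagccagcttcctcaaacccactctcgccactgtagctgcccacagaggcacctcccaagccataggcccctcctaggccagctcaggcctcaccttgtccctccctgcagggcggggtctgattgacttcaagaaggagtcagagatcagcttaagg
ODC1, 100 bases before the earlier of its start sites, chr2:10448328-10448427, minus strand: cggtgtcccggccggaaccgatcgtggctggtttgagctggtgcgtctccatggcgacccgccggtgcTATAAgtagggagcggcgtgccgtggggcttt
AMD1, upstream of 1 of its 3 listed start sites, chr6:110874665-110874769, plus strand: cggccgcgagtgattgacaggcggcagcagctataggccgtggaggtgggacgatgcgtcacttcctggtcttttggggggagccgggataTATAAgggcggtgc
SRM, upstream of its start site, chr1:11060169-11060268, minus strand: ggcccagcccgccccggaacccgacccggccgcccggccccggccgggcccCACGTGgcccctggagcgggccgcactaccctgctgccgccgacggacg
ODC1, upstream of the later of its start sites, chr2:10448023-10448052, minus strand: cgggccccgggCACGTGtgcggcgcgcctc
The AOC1 stretch, the AMD1 stretch and the second ODC1 stretch lie within the annotated span of their genes. Of the 10 members, 7 had a window from 250 bases before to 50 bases after a start site, and they had 10 windows in all. CACGTG was present in 2 of these 10 windows, 1 of ODC1 and 1 of SRM, against 7.26% of all 35116 windows. Of the pair of copies in ODC1, 1 is printed. TATAA, searched on the sense strand, was present in 4 of the 10 windows, of ODC1, AMD1 and OAZ1, against 14.8% of all windows. The AMD1 windows that held it overlap and share the copy, and the OAZ1 copy begins at position 7, after the start site. The androgen receptor half-site AGAACA, searched on both strands, was in 14.8% of all windows and in none of the members' windows, and neither was AGAACA followed by any 3 bases and TGTTCT, which 0.00285% of all windows held. The stretch of AOC1 had a GC content of 57.2% and the stretch of SRM 85.0%. These matches describe letters in a short window and say nothing of binding.

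AOC1 (chromosome 7, 150852120 to 150861504, protein-coding) was close to undetected in intact tumours and reached about the mean level of ODC1 in ENZS (161 against 158 human TPM). PRE-CX tumours ranged from 0.103 to 1.42 human TPM with a median of 0.337. POST-CX tumours ranged from 3.78 to 122 (median 12.1), and CRPC tumours from 2.29 to 99.8 (median 28.1). All 45 tumours of castrated mice lay above the highest PRE-CX tumour, so that none of the castrated groups overlapped with PRE-CX. ENZS tumours ranged from 10.7 to 348 human TPM (median 175), and ENZR tumours from 2.82 to 362 (median 77.6). The ranges within groups were wide, and ENZR contained both the highest tumour of the series (mouse 65) and 1 of the 3 lowest castrated tumours (mouse 104).

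As mean ± SD over each group, the AOC1 level was 0.467 ± 0.454 human TPM for PRE-CX, 26.1 ± 39.4 for POST-CX, 34.1 ± 27.7 for CRPC, 161 ± 110 for ENZS and 125 ± 120 for ENZR. In the order ENZS, ENZR, CRPC, POST-CX, PRE-CX, no gap between neighbours exceeded the larger of their SDs. The ratios of group means to PRE-CX were 56.0 in POST-CX, 73.2 in CRPC, 346 in ENZS and 268 in ENZR, and these ratios rest on a PRE-CX level near 0. In ENZS, 8 of 12 tumours were above the CRPC range. The highest POST-CX value, 122, was that of mouse 91, 1 of the 2 tumours with a low human share, and the other 7 POST-CX tumours lay between 3.78 and 27.6. Without it the POST-CX mean was 12.5 human TPM and its ratio to PRE-CX 26.8. In the contrast that was tested, CRPC against POST-CX, AOC1 differed by 0.77 on the log2(human TPM + 1) scale (95% interval -0.61 to 2.14, limma adjusted p 0.666), with 9 of 10 CRPC tumours above the POST-CX median.

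**Figure D1:**
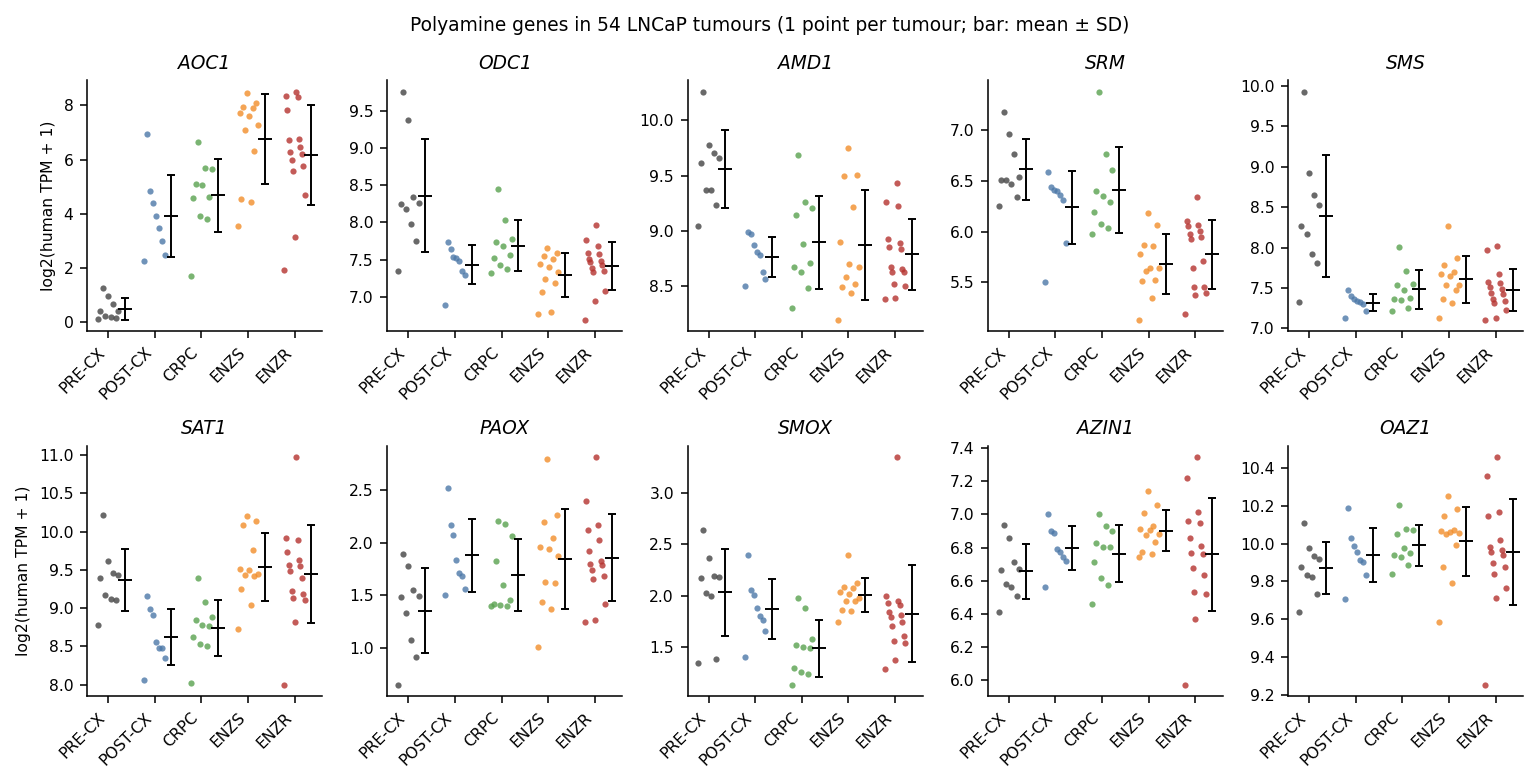
Level of each of the 10 genes in each of 54 tumours, as log2(human TPM + 1) on the vertical axis (a separate scale for each gene), with the 5 groups side by side and the mean ± SD as a bar. AOC1 is above the whole PRE-CX range in all 45 castrated tumours, ODC1 and SMS sit mostly below the PRE-CX median, AMD1 sits mostly below the PRE-CX range, and OAZ1 stays within a narrow band.

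Of the synthesis genes, ODC1, AMD1 and SMS fell in all 4 castrated groups against PRE-CX, and SRM fell in ENZS and ENZR. ODC1 (chromosome 2, 10439968 to 10448327) encodes ornithine decarboxylase, which makes putrescine. It ranged from 162 to 869 human TPM in PRE-CX (median 303), from 118 to 212 in POST-CX (median 180) and from 159 to 348 in CRPC (median 197). Under enzalutamide the range was 108 to 200 in ENZS (median 164) and 102 to 249 in ENZR (median 176). PRE-CX mice 112 (869) and 111 (663) were high, PRE-CX mouse 53 (162) was low, and POST-CX and ENZS overlapped with PRE-CX through that low tumour alone. All 8 POST-CX, 12 ENZS and 15 ENZR tumours, and 9 of 10 CRPC tumours, were below the PRE-CX median. ODC1 fell by 0.93 on the log2 scale in POST-CX (SE 0.20, limma adjusted p 0.000444), by 0.67 in CRPC (SE 0.19, limma adjusted p 0.00721), by 1.07 in ENZS (SE 0.18, limma adjusted p 1.40e-06) and, for ENZR, by 0.95 (SE 0.17, limma adjusted p 7.15e-06), each against PRE-CX. Leaving out any single tumour kept all 4 calls. With values as deposited, the CRPC call was lost for ODC1 (-0.63) and, below, for AMD1 (-0.62).

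AMD1 (chromosome 6, 110814617 to 110895713) encodes the decarboxylase of S-adenosylmethionine, the source of the aminopropyl groups. PRE-CX tumours ranged from 528 to 1226 human TPM (median 780) and POST-CX tumours from 360 to 506 (median 442), with no overlap. CRPC ranged from 313 to 825 (median 444), ENZS from 292 to 860 (median 411) and ENZR from 332 to 689 (median 408). AMD1 thus lay below the PRE-CX range in 8 of 8 POST-CX, 6 of 10 CRPC, 8 of 12 ENZS and 12 of 15 ENZR tumours. It fell by 0.80 in POST-CX (SE 0.18, limma adjusted p 0.000927), by 0.66 in CRPC (SE 0.17, limma adjusted p 0.00370), by 0.69 in ENZS (SE 0.16, limma adjusted p 0.000305) and, for ENZR, by 0.77 (SE 0.16, limma adjusted p 4.17e-05) against PRE-CX. Between neighbours in the order of group means, the gap exceeded the larger SD only between PRE-CX and CRPC.

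SMS (X chromosome, 21940709 to 21994837), spermine synthase, was also lower in every castrated group. Its range was 159 to 974 human TPM in PRE-CX (median 306), 139 to 177 in POST-CX (median 160), 148 to 256 in CRPC (median 170), 138 to 306 in ENZS (median 193) and 137 to 258 in ENZR (median 172). All 45 castrated tumours were below the PRE-CX median, while POST-CX overlapped with PRE-CX through PRE-CX mouse 58 (159) alone and PRE-CX mouse 112 (974) was the highest. Against PRE-CX, SMS fell by 1.07 in POST-CX (SE 0.18, limma adjusted p 1.68e-05), by 0.91 in CRPC (limma adjusted p 8.71e-05), by 0.78 in ENZS (limma adjusted p 4.99e-05) and by 0.92 in ENZR (limma adjusted p 2.38e-06).

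SRM (chromosome 1, 11054589 to 11060018), spermidine synthase, followed another course. It ranged from 75.4 to 145 human TPM in PRE-CX (median 90.4), from 44.3 to 95.6 in POST-CX (median 82.4) and from 62.0 to 166 in CRPC (median 79.2). In ENZS the range was 34.1 to 71.5 (median 49.0) and in ENZR 35.5 to 80.2 (median 59.9). All 12 ENZS tumours and 14 of 15 ENZR tumours lay below the PRE-CX range, and 10 of 12 ENZS tumours lay below the CRPC range. SRM fell by 0.94 in ENZS (SE 0.15, limma adjusted p 5.43e-07) and, for ENZR, by 0.84 (SE 0.14, limma adjusted p 2.38e-06) against PRE-CX, and by 0.73 in ENZS against CRPC (SE 0.14, limma adjusted p 0.000181). In POST-CX and CRPC it was not past the test, at -0.38 (95% interval -0.71 to -0.05, limma adjusted p 0.0808) and -0.21 (95% interval -0.52 to 0.10, limma adjusted p 0.366). SRM passed in POST-CX when each tumour was centred on its median gene (-0.57, limma adjusted p 0.0210) and with limma array weights (-0.31, limma adjusted p 0.0403). Whether near-identical copies, human or mouse, take reads from these genes was not tested. The 6 pseudogenes listed by name, all of AMD1 or SRM, reached at most 0.202 human TPM in any tumour.

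Summed over ODC1, AMD1, SRM and SMS, synthesis transcripts had a mean ± SD of 1633 ± 409 human TPM for PRE-CX, 845 ± 94.0 for POST-CX, 974 ± 169 for CRPC, 902 ± 198 for ENZS and 860 ± 142 for ENZR. The highest POST-CX tumour (931) was below the lowest PRE-CX tumour (1196).

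On the breakdown side, SAT1 (X chromosome, 23783173 to 23786210) encodes the acetyltransferase that marks spermidine and spermine for export or oxidation. It was lower after castration and back near the intact level under enzalutamide. The range was 438 to 1192 human TPM in PRE-CX (median 674), 266 to 570 in POST-CX (median 367) and 258 to 672 in CRPC (median 435). ENZS ranged from 423 to 1182 (median 707) and ENZR from 254 to 2011 (median 713), the highest being mouse 87 with its low human share. All 8 POST-CX and 10 CRPC tumours were below the PRE-CX median, and 9 of 12 ENZS tumours were above the CRPC range. SAT1 fell by 0.75 in POST-CX (SE 0.23, limma adjusted p 0.0124) and by 0.63 in CRPC (SE 0.21, limma adjusted p 0.0310) against PRE-CX. It rose by 0.80 from CRPC to ENZS (SE 0.20, limma adjusted p 0.00183). The differences of ENZS (0.17, 95% interval -0.24 to 0.59) and ENZR (0.07, 95% interval -0.32 to 0.47) from PRE-CX did not pass, and their sign depended on the scaling. The CRPC call was lost without PRE-CX mouse 4, CRPC mouse 89 or CRPC mouse 102 (limma adjusted p up to 0.0818) and with values as deposited (0.0905).

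The oxidases PAOX (chromosome 10, 133379262 to 133391694), which acts on acetylated polyamines, and SMOX (chromosome 20, 4148828 to 4187727), which oxidises spermine directly, were scarce. PAOX had 1.64 ± 0.699 human TPM in PRE-CX, 2.78 ± 0.982 in POST-CX, 2.32 ± 0.821 in CRPC, 2.78 ± 1.3 in ENZS and 2.77 ± 1.19 in ENZR (SD, n = 9, 8, 10, 12 and 15). It rose by 0.53 in POST-CX (limma adjusted p 0.0392), 0.49 in ENZS (limma adjusted p 0.0143) and 0.50 in ENZR (limma adjusted p 0.00970) against PRE-CX. These calls were lost with values as deposited and with each tumour centred on its median gene, and the POST-CX call was lost on leaving out any of 8 tumours, mouse 91 among them (limma adjusted p up to 0.104). SMOX had 3.25 ± 1.16 human TPM in PRE-CX, 2.72 ± 0.785 in POST-CX, 1.85 ± 0.575 in CRPC, 3.04 ± 0.483 in ENZS and 2.78 ± 1.84 in ENZR. It fell by 0.55 in CRPC against PRE-CX (SE 0.16, limma adjusted p 0.0131) and rose by 0.52 from CRPC to ENZS (SE 0.15, limma adjusted p 0.00681), where 12 of 12 ENZS tumours were above the CRPC median. The rise did not pass when each tumour was centred on its median gene (0.32, limma adjusted p 0.151). In ENZR the highest tumour was again mouse 87 (9.22), and without it SMOX passed against PRE-CX at -0.32 (limma adjusted p 0.0229), in place of -0.21 (0.232). SMOX also passed there with values as deposited (-0.38), centred (-0.47) and with array weights (-0.37).

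Of the regulators, OAZ1 (chromosome 19, 2269486 to 2273488) encodes antizyme and had the highest level per length of the 10 genes in each group. Its mean ± SD was 939 ± 89.9 human TPM for PRE-CX, 985 ± 97.0 for POST-CX, 1020 ± 78.0 for CRPC, 1038 ± 124 for ENZS and 1009 ± 191 for ENZR, and it passed the test in none of the comparisons. AZIN1 (chromosome 8, 102826302 to 102864200), the antizyme inhibitor, had 100 ± 11.8 human TPM in PRE-CX and 119 ± 10.3 in ENZS. Its rise of 0.25 in ENZS (limma adjusted p 0.0271) was below the median rise of all genes (0.29), was lost without PRE-CX mouse 9 or mouse 112, and turned to -0.05 when each tumour was centred on its median gene. In the order of group means of the 10 genes, only 4 gaps between neighbours exceeded the larger SD: AMD1 and SAT1 from PRE-CX to CRPC, SRM from POST-CX to ENZR, and SMOX from POST-CX to CRPC.

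**Figure D2:**
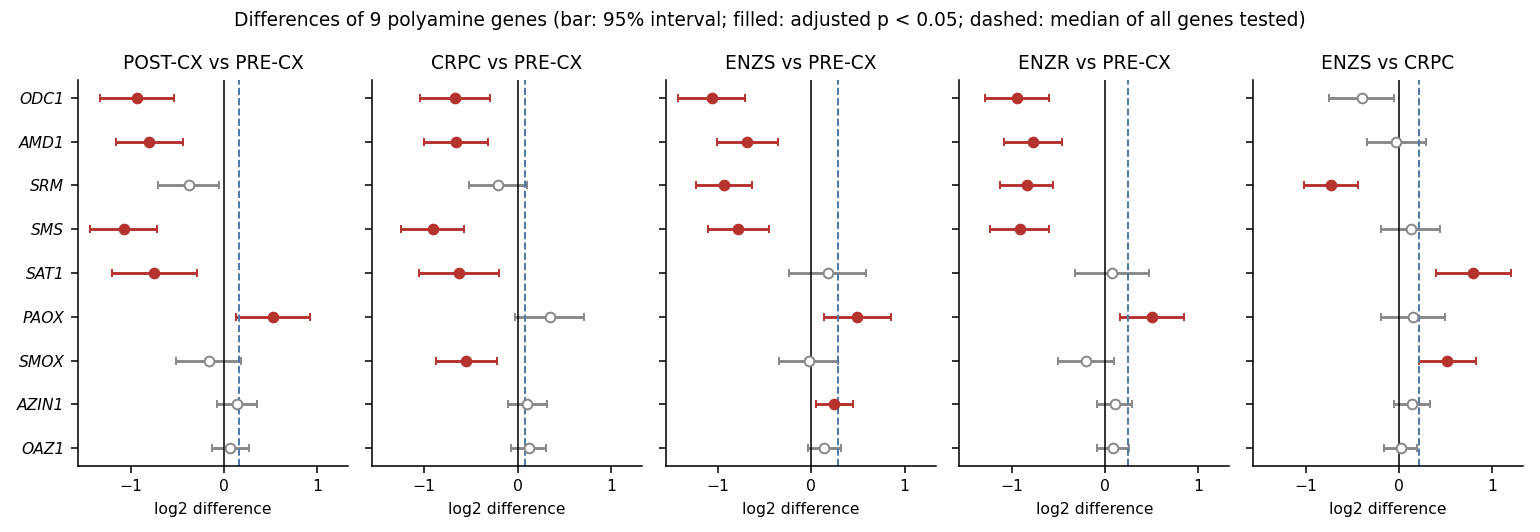
Log2 difference (horizontal axis) of the 9 members other than AOC1 in 5 comparisons, with 95% intervals; filled points had an adjusted p under 0.05, and the dashed line is the median of all 17593 genes tested. ODC1, AMD1 and SMS are left of 0 in all 4 comparisons with PRE-CX, SRM in those with enzalutamide most clearly, and SAT1 has a filled point right of 0 only for ENZS against CRPC.

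Comparison by comparison, the members were read against all 17593 genes tested in the same fit, where passing means a limma adjusted p under 0.05. In POST-CX against PRE-CX, 4 of 9 members were lower (ODC1, AMD1, SMS and SAT1) and 1 was higher (PAOX), while 5.62% of all genes were lower and 20.6% higher. The median log2 difference was -0.38 over the 9 members and 0.16 over all genes. In CRPC against PRE-CX, 5 of 9 were lower (ODC1, AMD1, SMS, SAT1 and SMOX) and none higher, against 5.87% and 14.2% of all genes, with medians of -0.55 and 0.08. In ENZS against PRE-CX, 4 of 9 were lower (ODC1, AMD1, SRM and SMS) and 2 higher (PAOX and AZIN1), against 13.6% and 47.5% of all genes, with medians of -0.03 and 0.29. The share of higher members in ENZS was thus under that of all genes. In ENZR against PRE-CX the same 4 were lower and PAOX higher, against 13.8% and 44.6%, with medians of -0.21 and 0.25. These 4 comparisons share their control tumours.

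In ENZS against CRPC, 1 of 9 members was lower (SRM) and 2 were higher (SAT1 and SMOX), against 6.41% and 31.4% of all genes. ODC1 had a log2 difference of -0.40 (95% interval -0.75 to -0.05, limma adjusted p 0.0633). It passed when only these groups were fitted (0.0182) and when centred (0.0144). It also passed on leaving out any 1 of PRE-CX mice 53, 111 and 112, CRPC mouse 36 and ENZS mouse 45 (lowest 0.0343). PRE-CX tumours are not part of this contrast and act on it through the shared fit. In ENZR against ENZS, limma called 0% of genes in either direction, with 1752 genes and none of the 9 members at an unadjusted p under 0.05. The member furthest from 0 there was SMOX, at -0.18 (95% interval -0.46 to 0.10). In CRPC against POST-CX, 0.0568% of genes were lower and 0.00568% higher (2259 at an unadjusted p under 0.05), and none of the 10 members passed, with SMOX alone under 0.05 unadjusted. In the difference between the relapse steps (ENZR minus ENZS, against CRPC minus POST-CX), 0.102% of genes were lower and 0.0966% higher, with 2382 genes and none of the 9 members at an unadjusted p under 0.05.

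The balance of directions over all genes depended on the scaling. Higher genes were 78.6% of those called in POST-CX against PRE-CX, but 38.3% with values as deposited and 41.4% with each tumour centred on its median gene. For CRPC the share was 70.7%, 74.8% as deposited and 51.4% when centred. For ENZS it was 77.8%, 78.7% as deposited and 48.4% when centred. For ENZR it was 76.4%, 60.6% as deposited and 46.7% when centred, and for ENZS against CRPC 83.0%, 69.6% as deposited and 44.5% when centred. In CRPC against POST-CX it was 9.09% of 11 genes, and 65.8% of 38 when centred, and in the difference between relapse steps 48.6% of 35 genes, 0% of 32 as deposited and 28.0% of 182 when centred. The median gene of POST-CX against PRE-CX moved from 0.16 to -0.05 as deposited, that of ENZR against PRE-CX from 0.25 to 0.07, that of ENZR against ENZS from -0.04 to -0.19, that of CRPC against POST-CX from -0.07 to 0.17 and that of the relapse steps from 0.03 to -0.37. Relative to the median gene, ODC1 was at -1.09 in POST-CX, -0.75 in CRPC, -1.36 in ENZS and -1.20 in ENZR against PRE-CX. Relative to it, SAT1 was at -0.12 in ENZS and -0.18 in ENZR.

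Ratios between members within a tumour do not depend on such scaling apart from the pseudocount. The 4 ratios were tested in 7 comparisons by two-sided permutation tests (exact if either group was smaller than 10), and 11 of 28 passed after adjustment over all 28. The log2 ratio of ODC1 to OAZ1, the enzyme to its antizyme, had a mean ± SD of -1.51 ± 0.71 for PRE-CX, -2.51 ± 0.29 for POST-CX, -2.30 ± 0.35 for CRPC, -2.72 ± 0.39 for ENZS and -2.54 ± 0.45 for ENZR. It was below PRE-CX in every castrated group, with an exact permutation adjusted p of 0.00269 for POST-CX, 0.0145 for CRPC, 0.000560 for ENZS and 0.00169 for ENZR. It was also lower in ENZS than in CRPC, with a difference of -0.42 (permutation adjusted p 0.0457), and 6 of 12 ENZS tumours lay under the CRPC range. The log2 ratio of AZIN1 to OAZ1 passed in none of 7 comparisons, with group means between -3.23 and -3.11.

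The log2 ratio of SRM to SMS was -1.77 ± 0.63 in PRE-CX, -1.08 ± 0.34 in POST-CX, -1.07 ± 0.43 in CRPC, -1.93 ± 0.35 in ENZS and -1.70 ± 0.48 in ENZR. It was higher than in PRE-CX by 0.70 in POST-CX (exact permutation adjusted p 0.0333) and by 0.70 in CRPC (0.0303), and ENZS differed from CRPC by -0.85 (permutation adjusted p 0.000560), where 10 of 12 ENZS tumours lay under the CRPC range. The POST-CX difference did not pass on ranks (0.0697). The log2 ratio of SAT1 to ODC1 was 1.01 ± 0.96 in PRE-CX, 1.20 ± 0.55 in POST-CX, 1.05 ± 0.63 in CRPC, 2.25 ± 0.41 in ENZS and 2.03 ± 0.86 in ENZR. Compared with PRE-CX it was up by 1.24 for ENZS (exact permutation adjusted p 0.00194) and by 1.02 for ENZR (0.0334), and ENZS exceeded CRPC by 1.20 (permutation adjusted p 0.000560), where 7 of 12 tumours exceeded the CRPC range. ENZR mouse 87 had the highest SAT1 to ODC1 ratio, and the ENZR difference passed without it and POST-CX mouse 91 (0.0485).

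**Figure D3:**
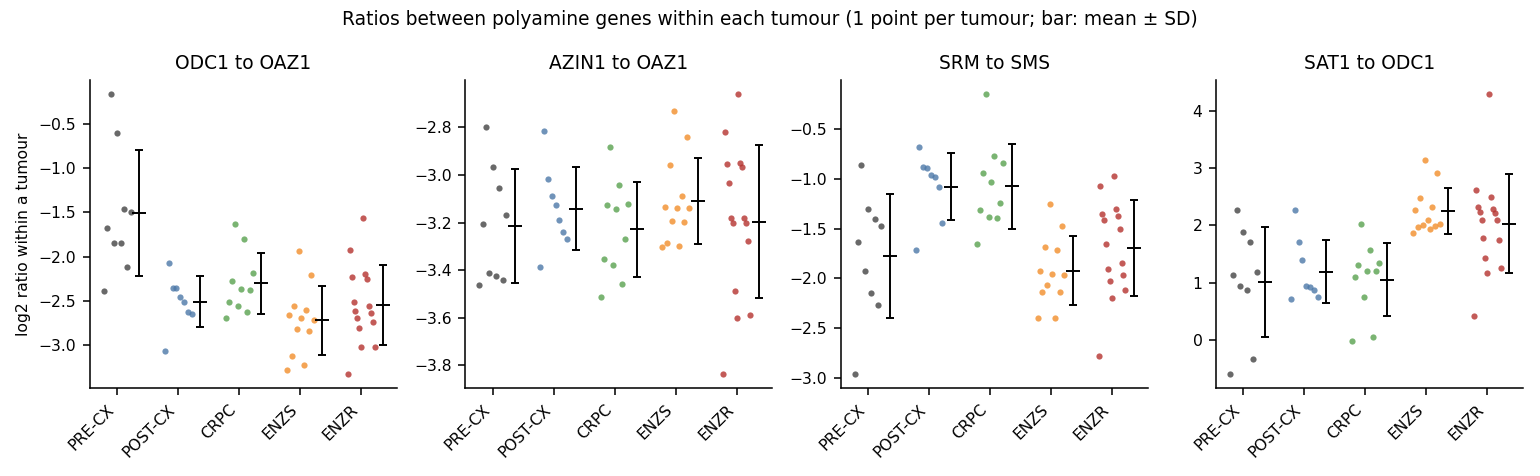
Log2 ratios of ODC1 to OAZ1, AZIN1 to OAZ1, SRM to SMS and SAT1 to ODC1 in each of 54 tumours (vertical axis), by group, with mean ± SD as a bar. The mean of ODC1 to OAZ1 drops from -1.51 in PRE-CX to between -2.72 and -2.30 in the castrated groups, SRM to SMS is highest in POST-CX and CRPC, and SAT1 to ODC1 is highest in ENZS and ENZR.

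Within 3 of the 5 groups, AOC1 was lower in the tumours with more proliferation transcripts by Pearson's r. A proliferation score (mean log2 value of 20 genes, among them MKI67, TOP2A and MCM2) and an androgen-induced score (16 genes, among them KLK3, TMPRSS2 and FKBP5) were related to AOC1, ODC1 and SAT1 in each group, which makes 30 relations. AOC1 had a Pearson correlation with the proliferation score of -0.81 in CRPC (n = 10, permutation adjusted p 0.0192), -0.82 in ENZS (n = 12, permutation adjusted p 0.00825) and -0.76 in ENZR (n = 15, permutation adjusted p 0.00825). Spearman's rho was -0.79, -0.76 and -0.67, each with an unadjusted permutation p of 0.00627 to 0.00874 and an adjusted p of 0.0769. Without the 2 tumours furthest from the median score, r was -0.65, -0.78 and -0.52. In ENZR, mice 75 and 104 had the highest scores (5.36 each) and the lowest AOC1 (7.92 and 2.82 human TPM). In PRE-CX (r = -0.59, exact permutation adjusted p 0.209) and POST-CX (r = -0.87, exact permutation adjusted p 0.0538, and -0.57 without mouse 91) the relation did not pass. The POST-CX relation did pass with a pseudocount of 0.1 TPM (-0.86, exact permutation adjusted p 0.0488) and with a median score (-0.89, 0.0362). It did not pass as deposited (-0.55, 0.259).

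These relations depended on the scaling and on the low-share tumours. As deposited, r of AOC1 was -0.75 in CRPC (permutation adjusted p 0.0514), -0.74 in ENZS (0.0289) and -0.31 in ENZR (0.390), and without POST-CX mouse 91 and ENZR mouse 87 it was -0.85 in ENZR (0.00360, and for Spearman's rho 0.00840). The score and AOC1 come from the same libraries and share any scaling error. The proliferation score itself was 5.58 ± 0.25 in PRE-CX, 5.15 ± 0.56 in POST-CX, 5.05 ± 0.47 in CRPC, 3.22 ± 0.68 in ENZS and 3.81 ± 0.95 in ENZR.

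ODC1 rose with the same score in POST-CX (r = 0.94, n = 8, exact permutation adjusted p 0.00825) and CRPC (r = 0.85, n = 10, permutation adjusted p 0.00825), where rho was 0.83 and 0.78 (adjusted p 0.0769 for both). The POST-CX relation rested in part on mouse 91, without which r was 0.85 (exact permutation adjusted p 0.0784), and without the 2 tumours furthest from the median it was 0.72 in POST-CX and 0.73 in CRPC. In ENZR r was 0.61 (permutation adjusted p 0.0547), in ENZS 0.21 (0.596) and in PRE-CX 0.06 (exact permutation adjusted p 0.873). The ENZR relation passed as deposited (r = 0.76, permutation adjusted p 0.00675, and for Spearman's rho 0.0255) and with a median score (0.62, 0.0471). Without the low-share tumours it did not (0.53, 0.167). As deposited, the POST-CX relation also passed by Spearman's rho (exact permutation adjusted p 0.0119). In the main analysis, no relation to the androgen-induced score passed for AOC1, ODC1 or SAT1 (adjusted p at least 0.0539), and SAT1 passed with neither score. The closest was AOC1 in ENZR (r = -0.63, and -0.12 without the 2 tumours furthest from the median score). It passed without the low-share tumours (r = -0.78, permutation adjusted p 0.0106) and with a median score (-0.78, 0.00900). With the smaller pseudocount it also passed (-0.66, 0.0368). As deposited, ODC1 in ENZR (r = 0.89, permutation adjusted p 0.0124) and SAT1 in POST-CX (0.84, 0.0289) passed. None of these relations to the androgen-induced score passed by Spearman's rho. Of the 30 relations in the main analysis, 5 passed by Pearson's r and 0 by Spearman's rho, with 7 at an unadjusted Spearman p under 0.05.

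**Figure D4:**
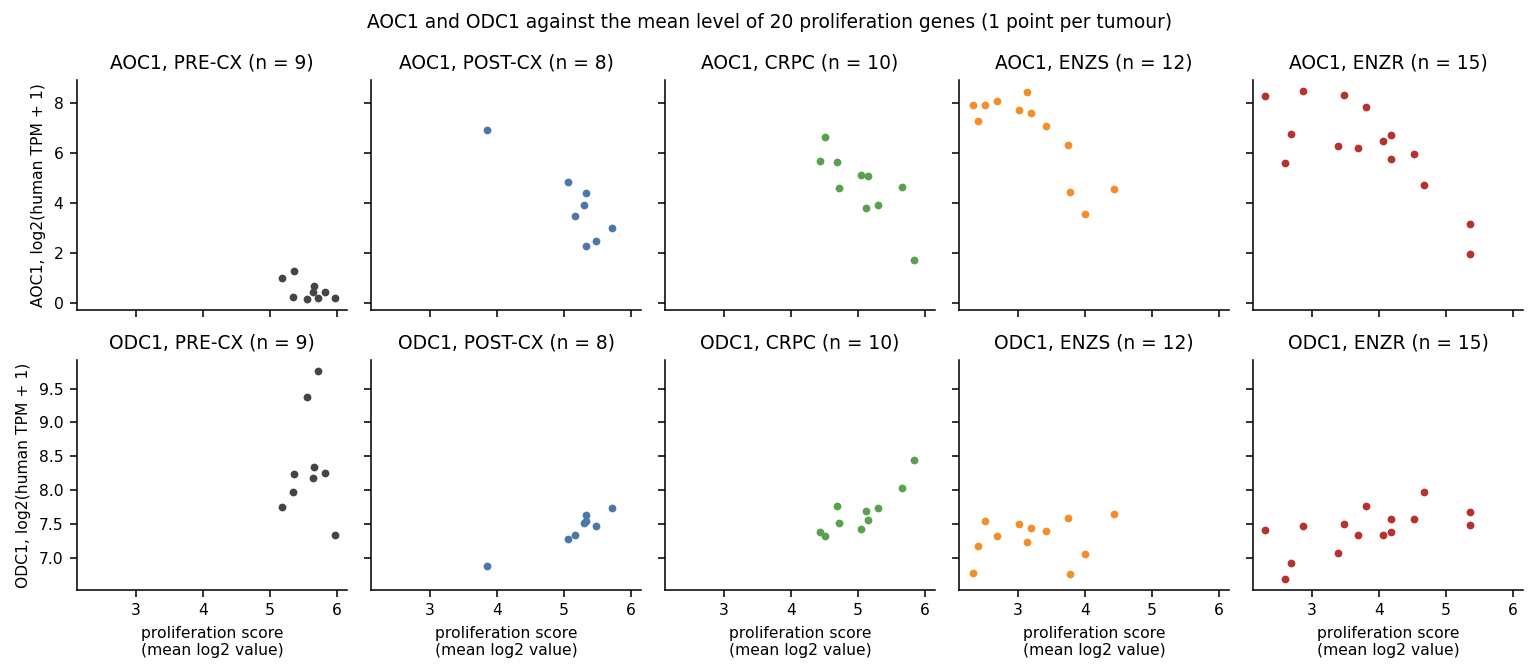
AOC1 (upper row) and ODC1 (lower row) as log2(human TPM + 1) against the proliferation score, a mean log2 value, with 1 panel for each group and 1 point for each tumour. AOC1 declines from left to right in CRPC, ENZS and ENZR, and the POST-CX panels contain 1 tumour, mouse 91, far to the left of the other 7.

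Across the 54 tumours, the genes whose levels ranked most like AOC1 among 12446 compared were TMEM50B (Spearman's rho 0.92), MR1 (0.92), SLC6A4 (0.92), GSTK1 (0.91) and AMOTL1 (0.91). After subtraction of group means they were PRCP (0.83), TMEM50B (0.79), ELAC1 (0.78), AC008105.2 (0.78) and GSTK1 (0.76). The serotonin transporter gene SLC6A4 went from a mean of 0.0838 human TPM in PRE-CX to 5.92 in ENZS, and TMEM50B from 47.9 to 169. For ODC1 the most similar genes were GAPDH (0.84), TPI1P1 (0.83), TPI1 (0.82), LDHA (0.81) and AK4P1 (0.81), and after subtraction of group means HMGB2 (0.70), GAPDH (0.69), EIF5A (0.68), TPI1P1 (0.66) and EPOP (0.66). These likenesses are descriptions over tumours that share groups. Among the members themselves, the highest rho after subtraction of group means was 0.44, between ODC1 and SRM, and the lowest was -0.48, between AOC1 and SRM.

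The wider pathway was read from lists of related genes, beside the shares of all genes tested that were higher (20.6% in POST-CX, 14.2% in CRPC, 47.5% in ENZS and 44.6% in ENZR) or lower (5.62%, 5.87%, 13.6% and 13.8%) against PRE-CX. The lists hold few genes, and most of their counts of higher genes lie near or under those shares. Of 10 genes that supply ornithine, 7 were tested. Against PRE-CX, 0 rose and 1 fell in POST-CX, 2 rose in CRPC, 3 rose and 1 fell in ENZS, and 2 rose and 1 fell in ENZR. The median log2 difference of the list was 0.26 in ENZS and 0.32 in ENZR, beside 0.29 and 0.25 over all genes. SLC7A2, a carrier of arginine, lysine and ornithine, rose from 6.14 ± 2.32 human TPM in PRE-CX to 17.5 ± 6.54 in CRPC (log2 difference 1.37, limma adjusted p 0.00171), 25.8 ± 9.47 in ENZS (1.89, limma adjusted p 1.12e-06) and 23.6 ± 12.3 in ENZR (1.63, limma adjusted p 9.19e-06), under each scaling. OAT, ornithine aminotransferase, was higher in ENZS than in CRPC by 0.94 (limma adjusted p 0.00265). ALDH18A1, which makes the precursor of proline and ornithine, fell by 0.39 in ENZS against PRE-CX (limma adjusted p 0.00274) and did not pass as deposited (0.189).

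Of 13 genes of methionine and S-adenosylmethionine, 12 were tested, with 1 higher and 1 lower in POST-CX and in CRPC, 5 higher and 2 lower in ENZS, and 2 higher and 2 lower in ENZR, each against PRE-CX. The list's median was 0.23 in ENZS and 0.12 in ENZR, and 3 of the 5 higher genes in ENZS (APIP, ENOPH1 and MTR) passed neither as deposited nor centred. GNMT, which methylates glycine with S-adenosylmethionine, fell in every castrated group, from 24.1 ± 8.95 human TPM in PRE-CX to 5.37 ± 1.83 in POST-CX, 6.92 ± 1.67 in CRPC, 6.75 ± 2.53 in ENZS and 4.57 ± 1.42 in ENZR (log2 differences between -2.14 and -1.62). AHCY, which clears S-adenosylhomocysteine, fell by 0.73 in ENZS (limma adjusted p 1.45e-07) and 0.62 in ENZR (limma adjusted p 1.85e-06) against PRE-CX. MTRR, methionine synthase reductase, rose in every castrated group against PRE-CX. The rise was 0.51 in POST-CX (limma adjusted p 0.00265), 0.75 in CRPC (1.04e-05), 0.77 in ENZS (2.26e-07) and 0.94 in ENZR (1.55e-09). As deposited, the POST-CX rise did not pass (0.26, limma adjusted p 0.646).

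Of 10 other regulators and transporters, 9 were tested, with 2 higher in POST-CX, 2 higher in CRPC, 4 higher and 1 lower in ENZS, and 6 higher and 1 lower in ENZR, against PRE-CX. The list's median was 0.25 in ENZS and 0.32 in ENZR, and 5 of the 6 higher genes in ENZR (ATP13A2, OAZ2, SLC12A8, SLC18B1 and SLC3A2) passed neither as deposited nor centred. AZIN2, a second antizyme inhibitor, rose from 1.65 ± 0.897 to 4.47 ± 1.62 human TPM in ENZS (1.05, limma adjusted p 4.59e-06), and OAZ3, a further antizyme, fell by 0.55 (limma adjusted p 0.000228). SLC3A2, the heavy chain of several amino acid exchangers, rose from 183 ± 59.9 in PRE-CX and 149 ± 27.4 in CRPC to 315 ± 96.2 in ENZS (ENZS against CRPC 1.03, limma adjusted p 0.000122). Of the 4 genes of the hypusine pathway, in which spermidine modifies the translation factor eIF5A, EIF5A fell from 379 ± 60.02 to 196 ± 42.4 human TPM in ENZS (-0.97, limma adjusted p 2.44e-08) and 225 ± 44.8 in ENZR (-0.77, limma adjusted p 1.80e-06). Its scarcer paralog EIF5A2 rose by 0.71 in ENZS (limma adjusted p 7.84e-05), and DHPS and DOHH, the enzymes of the modification, passed in none of the 4 comparisons with PRE-CX.

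Of 6 other amine oxidase and histamine genes, 4 were tested. Against PRE-CX, 2 were lower in each castrated group, beside 5.62% to 13.8% of all genes, and 1 was higher in ENZS and in ENZR. AOC2 and AOC3, the paralogs of AOC1, went the opposite way to it and were scarce, with AOC2 at 2.86 ± 0.862 human TPM in PRE-CX and 1.74 ± 0.653 in ENZS (-0.49, limma adjusted p 0.00223) and AOC3 at 1.40 ± 0.665 and 0.801 ± 0.321 (-0.38, limma adjusted p 0.00874). In POST-CX, CRPC and ENZR the differences were -0.45, -0.66 and -0.55 for AOC2 and -0.37, -0.42 and -0.36 for AOC3, and all passed. As deposited, AOC2 in POST-CX and AOC3 in POST-CX and CRPC did not pass. HNMT, which methylates histamine, the other substrate class of AOC1, had 0.270 ± 0.210 human TPM in PRE-CX and 1.58 ± 0.736 in ENZS (log2 difference 0.98). It is the 1 higher gene counted above. Its PRE-CX mean was under the filter of 1 human TPM, which it passed mainly through tumours of castrated mice. Its rise is therefore given as a description. Over these 5 lists and all comparisons, 64 differences passed, with those of HNMT in ENZS and ENZR included. Of these, 0 changed sign with values as deposited or centred, and 32 passed under both of these scalings.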

How the data were processed

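RNA-seq of 54 LNCaP xenografts was analysed from 1 table. Per the labels and the submitters' processing notes, the authors trimmed reads (FastQC 0.11.9, Trim Galore 0.6.5), aligned them with STAR 2.7.2b to combined human GRCh38 and mouse GRCm38 genomes (Gencode annotation) and deposited TPM from RSEM 1.3.3 for human symbols. Because TPM covered both species, each tumour was rescaled to 1000000 over its human symbols. This assumes that the human total is comparable between tumours. All 54 columns were mapped by name to mice, and groups were taken from the labels.

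Values were log2(TPM + 1), which understates changes of scarce genes. Genes with at least 1 TPM in at least 8 tumours (17593) were fitted with limma 3.58.1 (R 4.3.3, trend), with 5 group means over 54 tumours and Benjamini-Hochberg adjustment over all genes tested. A member passed at an adjusted p under 0.05. Ratios and correlations were tested by two-sided permutation, exact or with 100000 resamples (scipy 1.17.1). Named genes were the 10 members, the 5 most similar patterns by Spearman's rho and genes of the pathway lists. The script was tested on simulated data. The members and lists were chosen with earlier results of these data known. The alternatives were other scalings, pseudocounts, filters, tumours left out, separate fits and array weights. Leaving out each tumour was added after seeing the data. Tumours are 1 per mouse, and the labels give no batch.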

Additional observations from a re-analysis of the deposited data

How the results depend on the processing

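No paired analysis was possible because no mouse number is shared between groups. Of 24 member differences that passed, 15 kept their direction and passed under all 8 alternatives, SMOX in CRPC against PRE-CX did so under the 7 that tested it, and 1 changed sign. TPM give no depth for a single tumour, and precision rests on the spread between tumours. The cause of the changes below was not tested.

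Calls lost were PAOX in POST-CX, ENZS and ENZR (as deposited and centred), PAOX in POST-CX also with no filter and without the 2 low-share tumours, PAOX in ENZS also with array weights, SAT1 in CRPC also with no filter, AZIN1 in ENZS and ODC1, AMD1 and SAT1 in CRPC against PRE-CX (as deposited), and SMOX in ENZS against CRPC (centred). With values as deposited, 2 members passed in CRPC against PRE-CX in place of 5. With array weights, 1 member passed in CRPC against POST-CX in place of 0. Leaving out each tumour, the number of members passed was 4 to 5 in POST-CX and CRPC, 5 to 6 in ENZS and ENZR against PRE-CX, 3 to 4 in ENZS against CRPC and 0 to 0 in the other comparisons. Relations past the test numbered 8 with a median score, in place of 5.

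Genes past the test, as deposited, numbered 741 in POST-CX, 1272 in CRPC, 6590 in ENZS and 4981 in ENZR against PRE-CX (4620, 3525, 10750 and 10274 as reported), 3 in ENZR against ENZS, 0 in CRPC against POST-CX and 1529 in ENZS against CRPC (6647 as reported). Array weights gave 7573 in POST-CX and 6197 in CRPC against PRE-CX, 1 in ENZR against ENZS, 2025 in CRPC against POST-CX and 1688 for the relapse steps. In ENZR against ENZS the smaller pseudocount gave 1 gene and leaving out the 2 low-share tumours 2. In CRPC against POST-CX, centring gave 38 genes, the smaller pseudocount 7, the 5 TPM filter 5, leaving out the 2 tumours 40 and fitting only these groups 89, in place of 11. Centring gave 4413 in ENZS against CRPC. For the relapse steps, centring gave 182, no filter 12 and leaving out the 2 tumours 88, in place of 35. The 5 TPM filter left PAOX and SMOX untested.

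Log2 differences that changed sign were small, and AZIN1 in ENZS was the only one among them that had passed. As deposited, they were AZIN1 -0.13 and OAZ1 -0.21 in POST-CX, SAT1 -0.18, AZIN1 -0.14 and OAZ1 -0.16 in ENZR against PRE-CX, ODC1 -0.084, SRM -0.10 and PAOX -0.089 in ENZR against ENZS, PAOX 0.033 and AZIN1 0.27 in CRPC against POST-CX, OAZ1 -0.055 in ENZS against CRPC, and PAOX -0.12 and SMOX -0.14 for the relapse steps. Centred, they were AZIN1 -0.051 and OAZ1 -0.12 in POST-CX, SAT1 -0.12, AZIN1 -0.049 and OAZ1 -0.15 in ENZS, SAT1 -0.19, AZIN1 -0.16 and OAZ1 -0.18 in ENZR against PRE-CX, AZIN1 0.067 in CRPC against POST-CX, and SMS -0.078, PAOX -0.053, AZIN1 -0.064 and OAZ1 -0.18 in ENZS against CRPC. Without the 2 low-share tumours, they were SAT1 -0.037 in ENZR against PRE-CX and SRM 0.074 for the relapse steps. With array weights, they were SAT1 -0.0044 in ENZR against PRE-CX, SRM -0.013 in CRPC against POST-CX, AMD1 0.11 in ENZS against CRPC, and SRM 0.019 and AZIN1 0.0084 for the relapse steps.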
